A study of Mus musculus with 12 samples.

Results

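The Hedgehog pathway genes described here are 9 of the 49585 genes in the deposited count table. They are the receptor Ptch1, the ligand-binding inhibitor Hhip, the signal transducer Smo, the co-receptors Gas1, Boc and Cdon, and the transcription factors Gli1, Gli2 and Gli3. They were taken as a list of symbols, and each symbol matched 1 Ensembl gene in the table. RNA was sequenced from osteoblast cultures of neonatal C57BL/6J mice in 4 groups of 3 libraries, which are WT and Bcl3-/- cultures on day 1 and on day 3 of osteogenic induction. Bcl3 encodes a nuclear member of the IκB family, which binds NF-κB subunits. Cells were isolated from calvariae, the flat bones of the skull vault, of pups at postnatal day 3 to 5, and 1 to 3 calvariae were pooled for each culture. All 4 groups received 50 µg/mL ascorbic acid and 2 mM β-glycerophosphate, the supplements that start osteoblast differentiation and mineralization in culture. There were 6 cultures by the labels, 3 of each genotype, and every culture was sampled on both days. The part of Bcl3 that the mutant allele lacks is not given in the sources used here.

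In the Hedgehog pathway a secreted ligand binds PTCH1, which otherwise keeps the membrane protein SMO inactive, and active SMO lets the GLI2 and GLI3 proteins act as transcriptional activators. Without ligand, GLI3 in particular is cut into a repressor. Gli1, Ptch1 and Hhip are themselves transcribed in response to the pathway, and PTCH1 and HHIP bind ligand as negative feedback, whereas GAS1, BOC and CDON present ligand to PTCH1 at the cell surface. In the skull vault the pathway is known for promoting osteoblast differentiation, and Gli1 expression marks stem cells of the cranial sutures.

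Gene counts per library lay between 20009732 and 41953891, and 16318 genes passed a filter on low counts, all 9 Hedgehog genes among them. Levels below are read counts scaled to a common depth (CPM) after TMM normalization, differences are log2 fold changes with their standard errors (SE), and a gene was called at an edgeR adjusted p under 0.05. Whether groups overlap is given as description only, and the share of all tested genes without overlap was not counted. As a check of the labels, Bcl3 had 17.95, 21.8 and 17.8 CPM in the day 1 WT libraries and 17.5, 19.7 and 19.2 CPM in day 1 libraries labelled Bcl3-/-. These overlap (log2 fold change -0.03, SE 0.12, edgeR adjusted p = 0.888). On day 3 the levels were 14.8, 15.9 and 12.8 CPM in WT, against 10.2, 9.72 and 8.31 CPM in libraries labelled Bcl3-/-, which do not overlap (-0.62, SE 0.12, edgeR adjusted p = 0.00809). Counts over the whole gene thus did not show the deletion on day 1, and every genotype below is that of the label. All 12 osteoblast markers examined were measured, with a summed level between 34374 and 77988 CPM per library. That sum followed abundant matrix genes, with means of 28514 CPM for Col1a1 and 10869 CPM for Col1a2 in day 1 WT. Bglap and Bglap2 had means of 0.297 and 0.407 CPM in the same group. Sums of marker lists therefore do not give the share of each cell type in the cultures. Markers of other cells were present at lower sums. These were 1420 to 4776 CPM for suture and periosteal mesenchyme, 1990 to 3283 CPM for smooth muscle, 383 to 2553 CPM for chondrocytes, 97.3 to 286 CPM for macrophages, 28.1 to 277 CPM for adipocytes, 23.3 to 34.6 CPM for neural cells, 6.58 to 23.8 CPM for endothelium and 4.88 to 18.3 CPM for skeletal muscle. In bulk RNA, fewer cells of a type and less RNA per cell cannot be told apart.

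The 9 genes covered a range of levels per transcript length, measured as the deposited fragments per kilobase and sequencing depth (FPKM). Gas1 was highest, with a mean of 114 FPKM over the 12 libraries and a range from 43.7 to 218 FPKM. It was followed by Smo at 33.1 FPKM (26.6 to 43.9), Boc at 16.2 (14.5 to 18.9), Gli3 at 10.6 (7.92 to 13.1) and Cdon at 6.08 (4.69 to 9.07). Gli2 at 1.72 FPKM (1.25 to 2.33), Ptch1 at 1.06 (0.401 to 2.74), Hhip at 0.395 (0.0703 to 0.854) and Gli1 at 0.0894 (0 to 0.223) were low. Co-receptors and Smo therefore lay above the genes that the pathway itself induces. The ranges of Smo and Boc, of Boc and Gli3 and of Cdon and Gli2 did not overlap, whereas those of every other pair of neighbors in this order did. The mean of Gas1 was above that of 94.9% of the tested genes and the mean of Gli1 was above that of 1.28%.

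**Figure D1:**
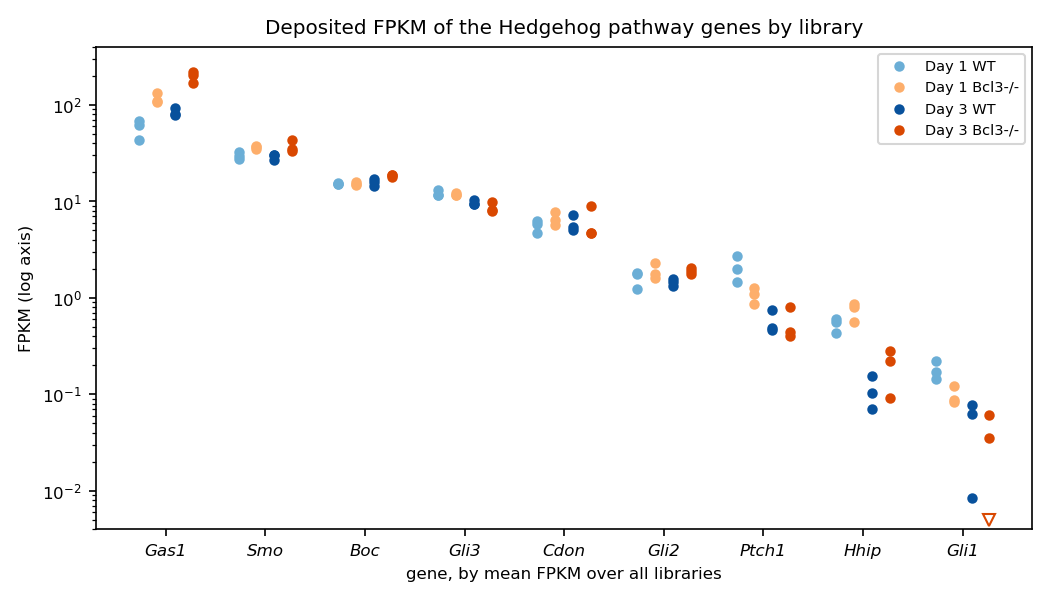
Deposited FPKM (log axis) of the 9 Hedgehog genes, ordered by mean, with 1 point per library and 3 libraries per group. The open triangle at the lower edge is the day 3 library labelled Bcl3-/- in which Gli1 is listed at 0. Gas1 separates by genotype on both days and lies highest in the day 3 libraries labelled Bcl3-/- (169 to 218 FPKM), while Ptch1, Hhip and Gli1 are lower on day 3 than in the day 1 WT libraries.

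The windows before the start sites of the 3 genes whose counts moved most clearly are shown because they are the sequences next to which these transcripts begin. Each is the 250 bases before the RefSeq start on GRCm38.p6, read 5′ to 3′ on the gene's minus strand, at chr13:63565736-63565985 for Ptch1, chr8:80058009-80058258 for Hhip and chr13:60177536-60177785 for Gas1. The RefSeq start of Ptch1 lies inside the span that GENCODE gives the gene. Capitals mark the GC box, GGGCGG or its reverse complement CCGCCC.
Ptch1: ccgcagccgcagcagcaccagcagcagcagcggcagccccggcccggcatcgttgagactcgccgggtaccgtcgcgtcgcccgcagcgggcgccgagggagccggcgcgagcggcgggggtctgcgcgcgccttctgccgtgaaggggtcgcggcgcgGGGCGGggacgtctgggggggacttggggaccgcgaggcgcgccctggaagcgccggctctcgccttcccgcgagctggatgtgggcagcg
Hhip: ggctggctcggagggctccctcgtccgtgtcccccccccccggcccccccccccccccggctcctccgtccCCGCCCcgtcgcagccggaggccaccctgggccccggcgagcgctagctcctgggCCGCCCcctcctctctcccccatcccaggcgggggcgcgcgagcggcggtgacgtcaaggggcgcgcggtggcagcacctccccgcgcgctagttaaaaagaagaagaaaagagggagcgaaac
Gas1: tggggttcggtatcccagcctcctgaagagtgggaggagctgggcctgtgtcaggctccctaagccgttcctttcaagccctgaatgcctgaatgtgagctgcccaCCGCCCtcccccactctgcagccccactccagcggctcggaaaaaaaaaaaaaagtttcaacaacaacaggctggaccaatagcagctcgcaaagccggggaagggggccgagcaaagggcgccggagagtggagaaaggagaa

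These windows were 78.4% G or C for Ptch1, 76.0% for Hhip and 58.8% for Gas1, and they held 1, 2 and 1 GC boxes. RefSeq windows of 300 bases, from 250 before to 50 after the start, were at hand for 7 of the 9 genes, and 5 of the 7 held a GC box on either strand, as did 35.7% of all 32851 windows. The 7 windows were 44.7% (Cdon) to 76.3% (Ptch1) G or C, where the median of all windows was 52.7%. The part of base content in the GC box count was not tested. The GLI-binding motif GACCACCCA, on either strand, was in none of the 7 windows and in 0.253% of all windows. The κB consensus was likewise in none of the 7 and in 8.46% of all windows. No match says only that these letters are not in this window. The windows of Cdon (chr9:35451826-35452125) and Gli3 (chr13:15463473-15463772) also lay inside the spans that GENCODE gives these genes. The 7 windows therefore do not all lie before the annotated start of the gene.

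More members were called over time than between genotypes, as was also so of all tested genes. Over time in WT, 4 of the 9 genes were called, which were Ptch1, Hhip and Gli1 lower and Gas1 higher, where 38.5% of all tested genes were called, 20.6% higher and 17.9% lower. Gli1 passed the count filter through day 1 WT, where it is high, so its call is not separate from that filter. Among libraries labelled Bcl3-/-, 5 of the 9 were called over the same time, which were Ptch1, Hhip and Gli3 lower and Gas1 and Boc higher, against 33.3% of all genes, 16.2% higher and 17.1% lower. Between genotypes only Gas1 was called on day 1, higher in the libraries labelled Bcl3-/-, with 15.4% of all genes called, 9.02% higher and 6.36% lower. On day 3 Gas1, Smo and Boc were called, all 3 higher in the libraries labelled Bcl3-/-, with 10.4% of all genes called, 4.78% higher and 5.66% lower. The shares of 4 and 1 of 9 were close to these backgrounds. The 3 genes called on day 3 became 1 with only the 6 libraries compared and on log2(FPKM + 1), where Smo and Boc were not called. The median log2 fold change of the 9 genes was 0.15 on day 1 and 0.26 on day 3 between genotypes, and -0.074 in WT and -0.20 in libraries labelled Bcl3-/- over time, where that of all tested genes lay between -0.0023 and 0.0024. No member was called by edgeR for a difference of the genotype effect between the days, a test that called 0.919% of all genes. At an unadjusted p under 0.05, 1 of the 9 passed that test, and DESeq2 called 0.

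**Figure D2:**
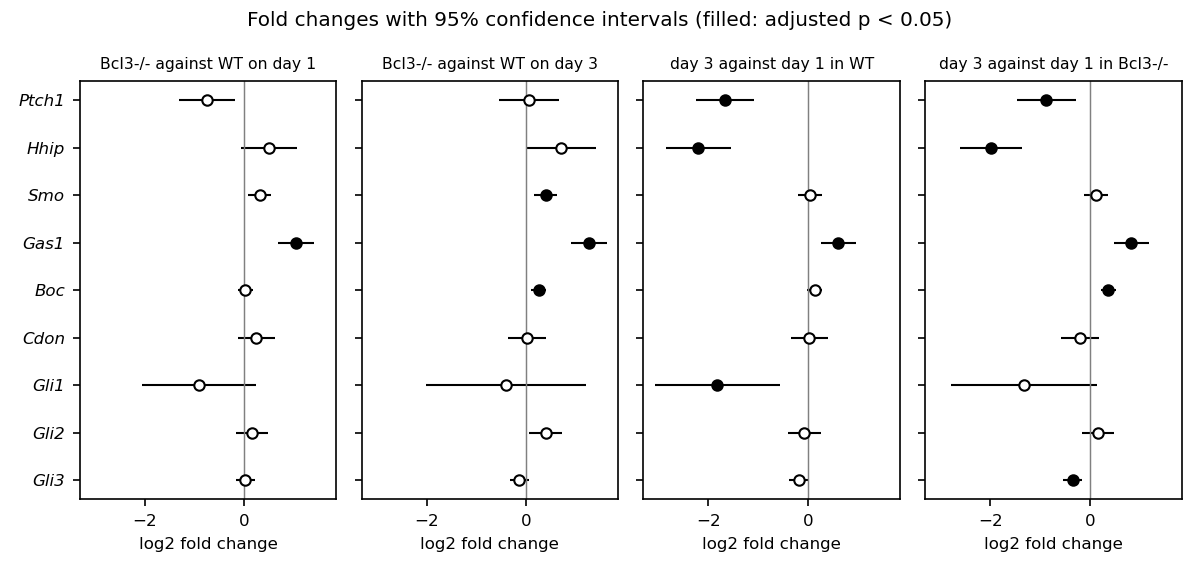
Log2 fold change (horizontal axis) of each Hedgehog gene in the 4 comparisons of genotype and time, with 95% confidence intervals from edgeR's fit. Filled points have an adjusted p under 0.05. Gas1 lies to the right of 0 in all 4 panels, from 0.61 to 1.26, and Hhip lies at -2.20 and -1.99 in the panels of time.

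Hedgehog ligands were barely detected in these cultures. Shh had 2 reads in the 12 libraries, both in 1 day 3 WT library, and Ihh, the ligand made by cells of bone and cartilage, had 20 reads in all, with 0 to 5 per library. Both were below the filter and were not tested, and a count of 0 allows a level of up to 0.0715 to 0.15 CPM, depending on the library. Dhh had 1 to 13 reads per library and was not called in any comparison. Of the 9 genes for ligands and their processing and release, 7 were tested. Scube2, a secreted protein that helps to release lipid-modified ligand, rose over time from 0.921 ± 0.513 to 6.99 ± 2.46 CPM (SD, n = 3) in WT (log2 fold change 2.87, SE 0.37, edgeR adjusted p = 0.000124). In the libraries labelled Bcl3-/- it rose from 1.62 ± 0.610 to 13.3 ± 0.513 CPM (3.01, SE 0.35, edgeR adjusted p = 8.93e-05). Scube3, of the same family, went the other way in WT (-1.03, SE 0.19, edgeR adjusted p = 0.000894) and was lower in the day 1 libraries labelled Bcl3-/- than in day 1 WT (-0.79, SE 0.18, edgeR adjusted p = 0.0133). Hhat, which attaches palmitate to the ligand, rose by 0.35 (SE 0.10, edgeR adjusted p = 0.0181) over time in WT.

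Ptch1, the receptor and a target of the pathway (chr13:63508328-63573598, minus strand, GRCm38), fell between the days in both genotypes. Its levels were 14.0, 13.4 and 9.72 CPM in the day 1 WT libraries and 3.59, 4.76 and 3.29 CPM in the day 3 WT libraries. Every day 3 WT library lay below every day 1 WT library (log2 fold change -1.67, SE 0.26, edgeR adjusted p = 0.000402), and this call held when any 1 of the 12 libraries was left out. The libraries labelled Bcl3-/- had 8.22, 7.74 and 6.06 CPM on day 1 and 2.83, 3.27 and 6.21 CPM on day 3. Here the days overlapped, since the day 3 replicate 3 was above the day 1 replicate 3 (-0.87, SE 0.27, edgeR adjusted p = 0.0259). That call was lost without day 1 replicate 1 (adjusted p = 0.0825), day 1 replicate 2 (0.0713), day 3 replicate 1 (0.0913) or day 3 replicate 2 (0.103) of the libraries labelled Bcl3-/-, by edgeR, with only the 6 libraries compared (0.0522) and on log2(FPKM + 1) by limma (0.0547).

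On day 1 all 3 libraries labelled Bcl3-/- lay below all 3 WT libraries in Ptch1, but the difference missed the threshold (-0.75, 95% confidence interval -1.30 to -0.19, edgeR adjusted p = 0.0678). It passed with the culture as a block (limma, -0.719, adjusted p = 0.037), in DESeq2 (-0.752, adjusted p = 0.0257), with only the 6 day 1 libraries (adjusted p = 0.0188), and by edgeR without day 1 WT replicate 3 (-0.895, adjusted p = 0.04), day 3 Bcl3-/- replicate 1 (adjusted p = 0.0472) or day 3 Bcl3-/- replicate 3 (adjusted p = 0.0163). It also passed on log2(FPKM + 1) by limma (-0.549, adjusted p = 0.0371), and it stayed uncalled in 15 of 22 alternatives. With 1 library left out at a time, the edgeR adjusted p ranged from 0.0163 to 0.208. On day 3 the genotypes overlapped in Ptch1 (0.05, 95% confidence interval -0.55 to 0.65, edgeR adjusted p = 0.93). The genotype effect on day 3 minus that on day 1 was 0.80 (SE 0.38, edgeR adjusted p = 0.436), and so the change of Ptch1 over time was not shown to differ between genotypes. Day 1 libraries labelled Bcl3-/- were above day 3 WT libraries in Ptch1 (0.92, SE 0.27, edgeR adjusted p = 0.0361).

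Hhip (chr8:79965851-80058006, minus strand, GRCm38), which encodes a membrane-anchored protein that binds and sequesters ligand, had the largest fall over time among the 9 genes in both genotypes. It had 3.84, 3.28 and 3.97 CPM in day 1 WT, against 0.457, 0.921 and 0.978 CPM in day 3 WT libraries, or -2.20 on the log2 scale (SE 0.30, edgeR adjusted p = 0.000127). In the libraries labelled Bcl3-/- it had 5.31, 6.58 and 3.79 CPM on day 1 and 1.66, 1.30 and 0.894 CPM on day 3 (-1.99, SE 0.29, edgeR adjusted p = 0.000288). The days did not overlap in either genotype, and both calls held with any 1 library left out. On day 1 the genotypes overlapped (0.50, SE 0.26, edgeR adjusted p = 0.233), as they did on day 3 (0.71, SE 0.32, edgeR adjusted p = 0.179). The day 1 means of the genotypes thus stood in opposite order for Ptch1 and Hhip. Day 1 libraries labelled Bcl3-/- were 6.51 times as high as day 3 WT libraries in Hhip (2.70, SE 0.30, edgeR adjusted p = 0.000183).

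**Figure D3:**
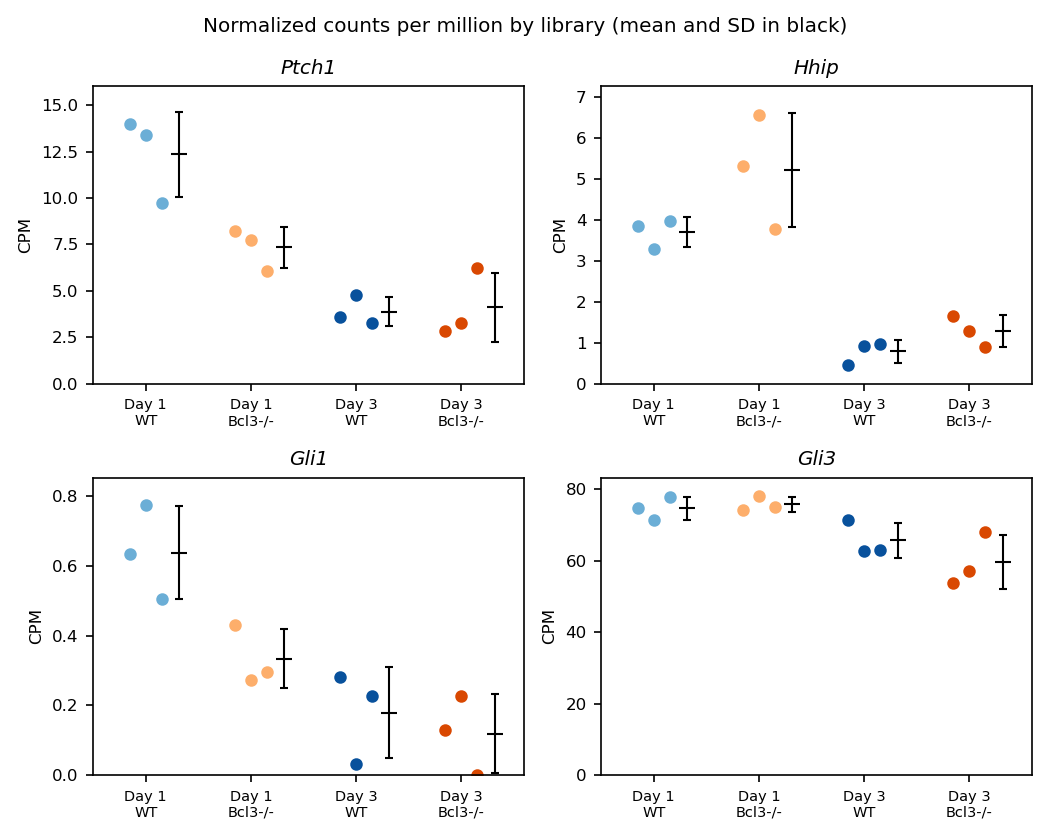
CPM of Ptch1, Hhip, Gli1 and Gli3 in each of the 12 libraries (points, 3 per group), with the group mean and SD in black beside them and axes from 0. Ptch1, Hhip and Gli1 are higher in the day 1 WT libraries than in the day 3 WT libraries, and Gli3 lies between 53.6 and 78.0 CPM in all 12 libraries.

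Gli1 (chr10:127329882-127341974, minus strand, GRCm38), the transcription factor most often read as the output of the pathway, was close to the detection limit. It had 14, 34 and 19 reads in day 1 WT libraries, 17, 8 and 9 reads in day 1 libraries labelled Bcl3-/-, 8, 1 and 9 reads in day 3 WT libraries, and 4, 7 and 0 reads in day 3 libraries labelled Bcl3-/-. All day 1 WT libraries were above all others in CPM, at 0.506 to 0.774 against 0 to 0.430. Gli1 passed the filter through that group, so that its being tested depended on the group in which it is high. The log2 fold change over time in WT was -1.82 (SE 0.58, edgeR adjusted p = 0.0243), and this call was lost without day 1 WT replicate 2 (adjusted p = 0.0839) or day 3 WT replicate 2 (adjusted p = 0.0734), by edgeR. Over time in the libraries labelled Bcl3-/- it was -1.32 (SE 0.68, edgeR adjusted p = 0.155), and between genotypes on day 1 it was -0.91 (95% confidence interval -2.06 to 0.23, edgeR adjusted p = 0.283). The exons of Gli1 overlap those of Arhgap9 on the other strand, which had 1097 reads in all, and the strand setting of the counting is not given in the sources used here.

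Beside the falls of Ptch1 and Hhip in both genotypes, transcripts of dividing cells fell over time. Of all tested genes, 38.5% were called over time in WT and 33.3% in the libraries labelled Bcl3-/-. All 20 mitosis genes examined, among them Mki67 and Cdk1, were called lower over time in WT and in the libraries labelled Bcl3-/-, and their summed level went from 2345 to 2453 CPM in day 1 WT to 1243 to 1369.7 CPM in day 3 WT. In the libraries labelled Bcl3-/- the sums were 2190.1 to 2301 CPM on day 1 and 927 to 969.8 CPM on day 3. Chondrocyte markers were mixed in WT, with 2 of 8 called higher and 1 lower and sums of 831 to 2553 CPM on day 1 and 426 to 1594 CPM on day 3. In the libraries labelled Bcl3-/- 3 of the 8 fell, with sums of 849 to 1175 CPM and then 383 to 463 CPM. Smooth muscle markers were called lower for 2 of 7 in WT and 4 of 7 in the libraries labelled Bcl3-/-. Of the 10 macrophage markers, 6 rose in WT, with sums of 99.3 to 146 CPM on day 1 and 212 to 286 CPM on day 3, while in the libraries labelled Bcl3-/- 5 rose and 1 fell, with sums of 97.3 to 131 CPM and 133 to 235 CPM. Osteoblast markers moved both ways, with 3 of 12 up and 3 down in WT, and 3 up and 5 down in the libraries labelled Bcl3-/-. The part of any of these in the changes of the Hedgehog genes was not tested.

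Gli2 (chr1:118834132-119053619, minus strand, GRCm38), the main activator among the GLI proteins, was not called in any comparison. It had 7.28, 11.7 and 9.48 CPM in day 1 WT, against 11.2, 11.4 and 9.26 CPM in day 1 libraries labelled Bcl3-/-. On day 3 it had 8.59, 8.99 and 9.61 CPM in WT, against 11.7, 12.4 and 11.5 CPM in libraries labelled Bcl3-/-. The day 3 genotypes did not overlap, and differed by 0.39 on the log2 scale (95% confidence interval 0.06 to 0.72, edgeR adjusted p = 0.12), and the difference passed only without day 1 WT replicate 1 (0.414, edgeR adjusted p = 0.0494).

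Gli3 (chr13:15463235-15730026, plus strand, GRCm38), the source of the pathway's repressor, was the GLI gene with the most transcript. It had 74.6, 71.4 and 77.9 CPM in day 1 WT, against 71.3, 62.6 and 63.0 CPM in day 3 WT libraries, a difference of -0.19 (SE 0.09, edgeR adjusted p = 0.118). The libraries labelled Bcl3-/- had 74.2, 78.0 and 74.9 CPM on day 1 and 53.6, 57.0 and 68.1 CPM on day 3, and here the fall was called (-0.35, SE 0.09, edgeR adjusted p = 0.00983). Both days lay apart in either genotype, and the difference between the genotypes in this change was -0.16 (SE 0.13, edgeR adjusted p = 0.696). The WT fall was called without day 3 Bcl3-/- replicate 3 (-0.185, edgeR adjusted p = 0.0428) and on FPKM by limma (-0.297 on the log2(FPKM + 1) scale, adjusted p = 0.0193). Between genotypes Gli3 overlapped on both days, with 0.02 on day 1 (SE 0.09) and -0.14 on day 3 (SE 0.09).

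Smo (chr6:29735503-29761365, plus strand, GRCm38), the transducer that PTCH1 holds in check, was slightly higher in the libraries labelled Bcl3-/- on day 3. It had 114, 101 and 113 CPM in day 3 WT, against 127, 133 and 171 CPM in day 3 libraries labelled Bcl3-/- (log2 fold change 0.40, SE 0.11, edgeR adjusted p = 0.0348). On day 1 it had 97.5, 105 and 117 CPM in WT, against 131, 138 and 128 CPM in libraries labelled Bcl3-/- (0.31, SE 0.11, edgeR adjusted p = 0.069). The genotypes did not overlap on either day. The day 3 call was lost without any 1 of the 3 day 3 WT libraries (edgeR adjusted p = 0.0785, 0.109 and 0.0549) and without day 3 Bcl3-/- replicate 2 (0.0587) or replicate 3 (0.253, adjusted p = 0.0833), with only the 6 day 3 libraries (0.0818) and on log2(FPKM + 1) by limma (0.0514). The day 1 difference was called without day 1 WT replicate 3 (0.389, edgeR adjusted p = 0.0308) or day 3 Bcl3-/- replicate 3 (0.312, edgeR adjusted p = 0.0168). Over time Smo overlapped in both genotypes, at 0.04 in WT and 0.12 in the libraries labelled Bcl3-/- (SE 0.11 for each).

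Gas1 (chr13:60174405-60177365, minus strand, GRCm38) encodes a lipid-anchored co-receptor and was the gene of the 9 that differed most between genotypes. Its levels were 120.2, 173 and 191 CPM in day 1 WT, against 300.4, 380.4 and 316 CPM in day 1 libraries labelled Bcl3-/-. On day 3 they were 235, 231 and 273 CPM in WT, against 502, 609 and 658 CPM in libraries labelled Bcl3-/-. The genotypes did not overlap on either day, and neither did the days within a genotype.

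The libraries labelled Bcl3-/- had 2.06 times as much Gas1 on day 1 (log2 fold change 1.04, SE 0.16, edgeR adjusted p = 0.00215) and 2.39 times as much on day 3 (1.26, SE 0.16, edgeR adjusted p = 0.00193). Gas1 rose over time by 0.61 (SE 0.16, edgeR adjusted p = 0.0109) in WT and by 0.83 (SE 0.16, edgeR adjusted p = 0.00246) in the libraries labelled Bcl3-/-. The difference between the genotypes in this rise was 0.22 (SE 0.23, edgeR adjusted p = 0.801). Day 1 libraries labelled Bcl3-/- all lay above day 3 WT libraries, by 0.43 (95% confidence interval 0.08 to 0.78, edgeR adjusted p = 0.0974), which was called without day 1 WT replicate 1 (0.447, edgeR adjusted p = 0.0244). The rise over time in WT missed the threshold when no filter on low counts was used (edgeR adjusted p = 0.0541). Beside Gas1, 2 of the 4 adipocyte markers tested were higher in the libraries labelled Bcl3-/- on day 3, which were Lpl (1.98, SE 0.27) and Pparg (1.10, SE 0.13). Of all tested genes, 4.78% were called higher in that comparison. The summed level of the 7 adipocyte markers was 28.1 to 40.9 CPM in day 1 WT, 87.0 to 102 CPM in day 1 libraries labelled Bcl3-/-, 56.5 to 101 CPM in day 3 WT and 216 to 277 CPM in day 3 libraries labelled Bcl3-/-. Of the defining markers of mature fat cells, Adipoq had 22, Plin1 had 14 and Cidec had 0 reads in the 12 libraries together, and the part of these cells in the Gas1 difference was not tested.

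Boc (chr16:44485049-44558897, minus strand, GRCm38), a co-receptor of the immunoglobulin superfamily, did not separate the genotypes on day 1. It then had 63.8, 64.8 and 66.6 CPM in WT, against 63.3, 68.9 and 66.1 CPM in libraries labelled Bcl3-/- (log2 fold change 0.02, 95% confidence interval -0.13 to 0.17). On day 3 it had 76.6, 65.7 and 71.6 CPM in WT, against 81.1, 86.4 and 88.0 CPM in libraries labelled Bcl3-/-. The day 3 genotypes did not overlap (0.26, SE 0.07, edgeR adjusted p = 0.0345), and Boc rose over time in the libraries labelled Bcl3-/- (0.37, SE 0.07, edgeR adjusted p = 0.00181). In WT the days overlapped (0.13, SE 0.07, edgeR adjusted p = 0.161), and the difference between the genotypes in this change was not called (0.23, SE 0.10, edgeR adjusted p = 0.359). The day 3 call was lost without day 3 WT replicate 2 (edgeR adjusted p = 0.111) or 3 (0.0668), without day 3 Bcl3-/- replicate 2 (0.11) or 3 (0.0708), with a block by the title number (0.0539), with no count filter (0.104), with only the 6 day 3 libraries (0.0957) and on log2(FPKM + 1) by limma (0.0611).

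Cdon (chr9:35421128-35507652, plus strand, GRCm38), the close relative of Boc, was not called in any comparison. It ranged from 25.5 to 30.6 CPM in day 1 WT, 31.5 to 37.0 CPM in day 1 libraries labelled Bcl3-/-, 24.8 to 37.5 CPM in day 3 WT and 25.3 to 36.8 CPM in day 3 libraries labelled Bcl3-/-. On day 1 the genotypes did not overlap (0.24, 95% confidence interval -0.13 to 0.62, edgeR adjusted p = 0.403), and on day 3 they did (0.02, 95% confidence interval -0.36 to 0.40).

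The makeup of the co-receptor transcripts differed between the groups as well. On the FPKM scale Gas1 took 73.1% ± 4.74 (SD, n = 3) of the summed co-receptors in day 1 WT and 84.3% ± 0.733 in day 1 libraries labelled Bcl3-/-. On day 3 it took 79.4% ± 2.46 in WT and 88.9% ± 0.728 in the libraries labelled Bcl3-/-. The 4 groups did not overlap in this share. The sum of the co-receptors went from 79.0 ± 12.9 FPKM in day 1 WT to 222 ± 27.9 FPKM in day 3 libraries labelled Bcl3-/-. These shares rest on the same values as the levels of Gas1 above and are not a separate result.

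Between genotypes, genes of other groups were also called beside Gas1, Smo and Boc. Of all tested genes, 15.4% were called on day 1 and 10.4% on day 3. Mitosis genes and macrophage markers on day 1 and chondrocyte markers on both days had shares below these. Mitosis genes were called lower in the libraries labelled Bcl3-/- for 2 of 20 on day 1 and 16 of 20 on day 3. Of 8 markers of suture and periosteal mesenchyme, 2 were higher on day 1, and 2 were higher and 1 lower on day 3. Smooth muscle markers were lower for 3 of 7 on day 1 and 4 on day 3. Of 10 macrophage markers, 2 were lower on day 3 by edgeR (median -0.80, 5 called by DESeq2), and on day 1 edgeR called 0 (1 at an unadjusted p under 0.05, and 1 called by DESeq2). Endothelial markers were higher for 2 of the 6 tested on day 1 and 1 on day 3, where their sums were 9.79 to 12.4 CPM in WT and 20.3 to 23.8 CPM in the libraries labelled Bcl3-/-. Of the 8 chondrocyte markers tested, 1 was higher on day 1 and edgeR called 0 on day 3 (3 at an unadjusted p under 0.05, and 2 called by DESeq2), and of the 6 neural markers 1 was higher on day 1 and 1 lower on day 3. Osteoblast markers went both ways, with 4 of 12 higher and 3 lower on day 1, and 3 higher and 3 lower on day 3. The part of any of these in the genotype differences of the Hedgehog genes was not tested.

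**Figure D4:**
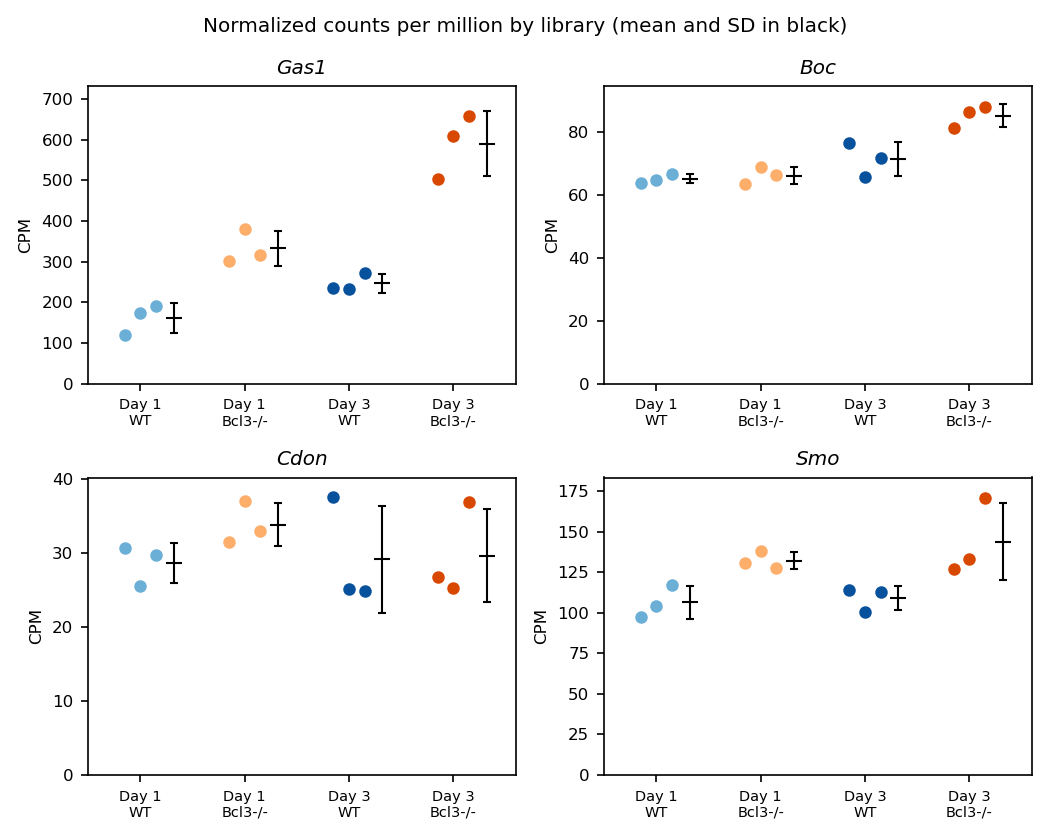
CPM of Gas1, Boc, Cdon and Smo in each of the 12 libraries (points, 3 per group), with the group mean and SD in black beside them and axes from 0. Gas1 lies at 300.4 CPM or above in all 6 libraries labelled Bcl3-/- and at 273 CPM or below in all 6 WT libraries, whereas Boc separates the genotypes on day 3 and Cdon overlaps there.

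Among 8 other surface genes of the pathway, Gpc3 and Gpc6 followed the genotype and Mosmo went the other way. Gpc3, a glypican that competes with PTCH1 for ligand, had 73.6 ± 22.4 CPM in day 1 WT and 148 ± 15.5 CPM in day 1 libraries labelled Bcl3-/- (SD, n = 3; log2 fold change 1.01, SE 0.21, edgeR adjusted p = 0.00883). On day 3 it had 120.2 ± 30.8 and 229.9 ± 6.36 CPM (0.94, SE 0.21, edgeR adjusted p = 0.0169). Gpc6, another glypican, was higher by 0.45 on day 1 and 0.42 on day 3 (SE 0.11 for each, edgeR adjusted p = 0.0158 and 0.0301). Mosmo, an attenuator of SMO, was lower on day 1 in the libraries labelled Bcl3-/- (-0.29, SE 0.08, edgeR adjusted p = 0.0294). Over time it fell by 0.44 in WT and by 0.31 in the libraries labelled Bcl3-/- (SE 0.08 for each). Of the 7 that were tested, 2 were called higher and 1 lower between genotypes on day 1, and 2 higher on day 3, with medians of 0.15 and -0.095, where 15.4% and 10.4% of all tested genes were called.

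Inside the cell, genotype calls were about as frequent as over all genes. Of 31 cytosolic and ciliary regulators of GLI proteins, 1 was called higher and 3 lower on day 1, and 1 higher and 2 lower on day 3, where 15.4% and 10.4% of all tested genes were called, with medians of -0.061 and -0.021. Efcab7, which anchors the EVC complex that relays SMO activity in the cilium, was the higher one on both days (1.81 on day 1, SE 0.19, edgeR adjusted p = 0.000291, and 1.33 on day 3, SE 0.19, edgeR adjusted p = 0.00213). Prkar2a, a regulatory subunit of protein kinase A, the kinase that primes GLI proteins for processing, was lower on both days (-0.66, SE 0.12, edgeR adjusted p = 0.00438, and -0.51, SE 0.13, edgeR adjusted p = 0.0224). Sufu, which binds and restrains GLI proteins, was not called, at 0.00 on day 1 (95% confidence interval -0.20 to 0.20) and 0.23 on day 3 (0.03 to 0.43). Over time in WT 3 of the 31 were called higher and 6 lower, and in the libraries labelled Bcl3-/- 2 higher and 5 lower, against 38.5% and 33.3% of all tested genes. Cul1, a scaffold of ubiquitin ligases, rose in both (0.70 and 0.59, SE 0.08 for each), and Prkar2a fell in both (by 1.00, SE 0.12, and by 0.85, SE 0.13).

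Of 29 genes of the primary cilium, the organelle in which SMO and GLI proteins act, 7 were called higher and 2 lower over time in WT, while 5 rose and 2 fell in libraries labelled Bcl3-/-. Both shares were below the 38.5% and 33.3% of all tested genes that were called over time. The medians were 0.15 and 0.16. The transport genes Ift122 (0.67 in WT, SE 0.10) and Dync2li1 (0.75 in WT, SE 0.13) rose, while Arl13b, a small GTPase of the ciliary membrane, fell by 0.35 (SE 0.07). Between genotypes 1 of the 29 was called on day 1, which was Dync2li1, higher in the libraries labelled Bcl3-/- (0.51, SE 0.13, edgeR adjusted p = 0.0199). Of all tested genes, 15.4% were called between genotypes on day 1 and 10.4% on day 3. On day 3 edgeR called 0 of the 29, with 5 at an unadjusted p under 0.05, and DESeq2 called 2.

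Other genes described as Hedgehog targets did not move together. Of 20, 18 were tested, and over time in WT 4 were called higher and 6 lower, while in the libraries labelled Bcl3-/- 1 was called higher and 5 lower, beside 38.5% and 33.3% of all tested genes. Osr2, a zinc finger factor of the skull and palate, rose by 1.82 (SE 0.29) in WT and by 0.98 (SE 0.26) in the libraries labelled Bcl3-/-, and it was higher in the latter on day 1 (2.06, SE 0.29, edgeR adjusted p = 0.00131) and on day 3 (1.22, SE 0.26, edgeR adjusted p = 0.0119). Its relative Osr1 was higher in them on day 1 (0.64, SE 0.11, edgeR adjusted p = 0.00279). Ccne1, a cyclin of the entry into S phase, was lower in the libraries labelled Bcl3-/- on day 1 (-0.52, SE 0.08) and day 3 (-0.46, SE 0.08), and it fell over time in WT by 0.85 (SE 0.08). In all, 3 of the 18 were called higher and 1 lower on day 1 between genotypes, and 1 higher and 2 lower on day 3, beside 15.4% and 10.4% of all tested genes, with medians of -0.30 and -0.26, and the medians over time were -0.33 in WT and -0.17 in libraries labelled Bcl3-/-. The forkhead gene Foxf2 fell over time in WT by 0.99 (SE 0.22) and in the libraries labelled Bcl3-/- by 0.86 (SE 0.23), as Ptch1 and Hhip did.

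Among 8 zinc finger factors related to the GLI proteins, Glis2 rose over time in WT (0.46, SE 0.08) and in the libraries labelled Bcl3-/- (0.53, SE 0.08). Glis1 (-1.04, SE 0.21) and Glis3 (-0.67, SE 0.17) fell in WT. The medians of the 8 over time were 0.19 in WT and 0.071 in libraries labelled Bcl3-/-. Between genotypes 1 of the 8 was called on each day, where 15.4% of all tested genes were called on day 1 and 10.4% on day 3. These were Zic5 on day 1, lower in the libraries labelled Bcl3-/- (-0.40, SE 0.13, edgeR adjusted p = 0.0497), and Glis3 on day 3, higher in them (0.71, SE 0.17, edgeR adjusted p = 0.0221).

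When day 1 libraries labelled Bcl3-/- were set against day 3 WT libraries, 2 of the 9 Hedgehog genes were called, which were Ptch1 and Hhip, both higher on day 1, where 14.6% of all tested genes were called, 7.35% higher and 7.29% lower. Gas1, at 300.4 to 380.4 CPM against 231 to 273 CPM, and Smo, at 128 to 138 CPM against 101 to 114 CPM, lay apart without a call (Smo 0.27, SE 0.11, edgeR adjusted p = 0.109). So did Gli3, at 74.2 to 78.0 CPM against 62.6 to 71.3 CPM (0.21, SE 0.09, edgeR adjusted p = 0.143). Smo was called here without day 3 Bcl3-/- replicate 3 (0.274, edgeR adjusted p = 0.0301), and the Ptch1 call was lost without day 1 Bcl3-/- replicate 1 (edgeR adjusted p = 0.103) or 2 (0.107) or day 3 WT replicate 1 (0.0868) or 3 (0.135), with a block by the title number (0.0599) and on log2(FPKM + 1) by limma (0.113). This comparison shares its libraries with those of genotype and of time, so its values are not separate evidence.

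Over the 12 libraries, the members with the most similar log2 CPM were Gas1 and Smo (Pearson's r = 0.86), Gas1 and Boc (0.80), and Ptch1 and Gli3 (0.76). Ptch1 and Hhip had r = 0.70, and Ptch1 and Gas1 had r = -0.61. Among 11991 genes, those most like Ptch1 were Nop58, Fam199x, Zik1, Med1 and Hnrnpab (r from 0.973 to 0.959), and those most like Gli1 were Nf1, Slc6a8, Suds3, Nfya and Armt1 (0.943 to 0.919). The 12 points share genotype, day and culture, so that these values describe the order of the libraries and carry no test.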

How the data were processed

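The authors trimmed reads (Trim Galore), aligned them to GRCm38 (TopHat2) and deposited raw read counts per gene (HTSeq). The deposited FPKM values come from Cufflinks, which the authors used to scale by length and depth. The versions and strand setting are not given in the sources used here. Entries that name no gene (12.3 to 14.7% of reads) were left out, as were 49 FPKM entries with several values. Symbols and positions came from GENCODE M21, promoters from RefSeq (GRCm38.p6).

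Genes were kept by filterByExpr, normalized by TMM and fitted with edgeR's quasi-likelihood test (edgeR 4.0.16, R 4.3.3) in 4 groups, with Benjamini-Hochberg adjustment within each contrast. A test on counts simulated from the fitted levels and spreads was run after the fit. Alternatives were DESeq2 1.42.0, RLE, other count filters, only the 6 libraries compared, blocks, limma 3.58.1 on FPKM with pseudocounts of 1 or 0.1, and leaving out each library. The members, gene lists and motifs were chosen with earlier results of these data known. Named genes were the 9 members, Bcl3, Shh, Ihh, Dhh, Sufu, and from each further list the called genes with the smallest adjusted p or the rarer direction. A further gene that this rule names is not reported here and was taken off the lists. Marker lists also covered suture mesenchyme, chondrocytes, smooth muscle and neural cells.

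The culture codes in the labels pair the days, since the same culture gave both libraries. Deviations from the group means of libraries of 1 culture correlated at 0.243 to 0.327 in WT and at -0.157 to -0.0168 in Bcl3-/-. Labels call the cultures biological replicates. The main p-values rest on the spread between the 3 libraries within each group, pooled over the 4 groups. They take the days of a culture as separate libraries, and only the block by culture uses the pairing. No 2 libraries were copies, with a chi-square of at least 6.34 per gene over 66 pairs.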

Additional observations from a re-analysis of the deposited data

How the results depend on the processing

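Counts of called Hedgehog genes were small and moved with the setting. On day 1 between genotypes, 1 gene was called as reported, 2 by DESeq2, with no count filter, with a minimum of 1 CPM in 6 libraries, with a replicate block by culture and on log2(FPKM + 1), and 3 with only the 6 libraries compared. On day 3, 3 were called, but 1 with only the 6 libraries compared, on log2(FPKM + 1) and on log2(FPKM + 1) for genes reaching an FPKM of 1 in 3 libraries. That last filter, which left 7 of the 9 genes, gave 3 in place of 5 over time in Bcl3-/- and 0 in place of 2 for day 1 Bcl3-/- against day 3 WT, where the 6 libraries compared gave 4 and log2(FPKM + 1) and log2(FPKM + 0.1) gave 1. Leaving out 1 library at a time gave 1 to 3 genes on day 1, 1 to 4 on day 3, 3 to 5 for time in WT, 4 to 5 for time in Bcl3-/-, 0 to 0 for the difference between the days and 1 to 3 for day 1 Bcl3-/- against day 3 WT. The cause was not tested beyond the fewer libraries or genes.

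Blocks were tried for the pairing of days by culture and for the title number, which the genotypes only share: same-numbered libraries of the genotypes correlated at -0.0646 to 0.0443 on day 1 and 0.0575 to 0.214 on day 3. With the block by title number, the day 3 difference of Boc was 0.257 (adjusted p = 0.0539), Ptch1 in day 1 Bcl3-/- against day 3 WT was 0.928 (adjusted p = 0.0599) and Gas1 there was 0.429 (adjusted p = 0.0317). With the block by culture, Ptch1 on day 1 was called, and no other call of a member changed under either block.

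Of 1161 refits of single genes, 1067 kept direction and side of the threshold. The changes of sign were all of differences that were not called. With the block by culture, Ptch1 on day 3 was -0.0568 and Cdon over time in WT was -0.000233. With no count filter, Cdon on day 3 was -0.000181. On log2(FPKM + 1) and log2(FPKM + 0.1), Gli3 on day 1 was -0.0306 and -0.0328, Boc on day 1 was -0.00377 and -0.00402, Ptch1 on day 3 was -0.0211 and -0.0649, and Smo over time in WT was -0.0359 and -0.037. Hhip for the difference between the days was -0.0709 on log2(FPKM + 1). Leaving out 1 library at a time gave ranges across 0 for the genotype differences of Gli2 on day 1 (-0.00398 to 0.332), Gli3 on day 1 (-0.0114 to 0.0537), Boc on day 1 (-0.00832 to 0.0492), Gli1 on day 3 (-1.15 to 0.000167), Ptch1 on day 3 (-0.344 to 0.261) and Cdon on day 3 (-0.162 to 0.240). It did so too for Gli2 (-0.248 to 0.088), Smo (-0.0474 to 0.098) and Cdon (-0.196 to 0.129) over time in WT, for Smo over time in Bcl3-/- (-0.021 to 0.202), and for Gli1 (-0.233 to 0.915), Hhip (-0.0417 to 0.404) and Smo (-0.059 to 0.175) in the difference between the days. A call was gained in 22 refits of 6 differences, which were Ptch1 and Smo on day 1, Gli2 on day 3, Gli3 over time in WT, and Smo and Gas1 in day 1 Bcl3-/- against day 3 WT. A call was lost in 36 refits of 6 differences, which were Smo and Boc on day 3, Gli1 and Gas1 over time in WT, and Ptch1 over time in Bcl3-/- and in day 1 Bcl3-/- against day 3 WT. Gli1 had 34 reads or fewer per library and Hhip had 13 to 210, and the part of depth in these refits was not tested.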
